A study of Sus scrofa with 36 samples.

Results

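In the adrenal glands of 36 castrated male pigs, 71 of the 45348 probes of the deposited log2 table had an F1 mean outside the means of both parent breeds. They were chosen by a rule on the measured values. The mean of the F1 pigs had to lie at least 0.4 above, or at least 0.4 below, the means of both the Large White (LW) and the Creole (CR) pigs, in the same direction at both temperatures, while the LW and CR means differed by less than 0.4 at each temperature. Of the 71 probes, 38 lay above both parent breeds and 33 below both. Because the values that chose them are those of the F1, LW and CR pigs, every difference between breeds given here is a description and was not tested.

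RNA of whole adrenal glands was measured on 1-colour porcine Agilent arrays, 1 per pig, to compare pigs kept at thermoneutrality with pigs exposed to heat. There were 6 groups of 6 pigs, namely LW, CR and the cross Large White×Creole (F1), each as TN pigs at 24 °C and as HS pigs, which the labels give as 30 °C and the growth protocol as 32 °C for 5 days. The pigs of a breed were blocks of littermates penned apart from other breeds, and HS pigs were killed on later days than TN pigs, so that day of slaughter and temperature cannot be told apart. Litter, pen and parents are not in the labels. The pigs are separate animals, but by the paper's design each shared its litter and its pen with other pigs of its breed. The p-values measure the spread between these pigs and do not account for litter or pen. Precision is limited by the numbers of litters and pens as well as of arrays.

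The arrays had 42436 to 48060 probes well above background each, and lay on 5 slides, each with as many TN as HS arrays. The defining markers of the tissue were present. The adrenal cortex genes STAR, CYP17A1 and CYP11A1 had mean levels of 17.73, 17.97 and 18.34 on the log2 scale, and CHGA of the chromaffin cells 18.70. In 1 of the CR pigs at HS (replicate 2) the summed signal of the pancreas markers was 18.13, against at most 13.97 on any F1 array and 13.96 on any LW array, and without this pig the rule gave 74 probes, 67 of them among the 71. In bulk tissue, fewer cells of a type and less RNA per cell cannot be told apart.

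When 2 breeds are crossed, a transcript whose alleles act additively has a mean in the cross between those of the parents, and a mean outside both is called overdominant or underdominant. Mitochondria, by contrast, pass through the mother alone, so that all pigs of one maternal line carry the same mitochondrial genome, and genes of the major histocompatibility complex (MHC) are among the most variable of the nuclear genome. An array probe reads a transcript through a stretch of 60 bases, and its signal depends on the amount of that transcript and on how well the stretch pairs with it.

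Of the 71 probes, 45 could be named, 25 above and 20 below the parents, and they stand for 28 genes, 14 in each direction. The other 26 probes, 13 in each direction, had no name. All 71 passed the filter on dim probes (well above background on 9 or more arrays of TN or of HS), 63 of them were well above background on all 36 arrays, and 0 were saturated on any array. The 71 probes carry 67 distinct sequences, and 23 of them share a run of at least 20 bases with another of the 71, so that they are fewer than 71 independent readings. With LW put in the place of the cross, the same rule gave 149 probes (67 above, 82 below), and with CR in its place 307 (107 above, 200 below).

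The size of the shift was measured by the distance, the smallest of the 4 differences of the F1 mean from a parent mean over both temperatures. Above the parents it ran from 0.40 to 2.09 with a median of 0.56, and below the parents from -0.41 to -0.74 with a median of -0.49. For 5 probes it was over 1, all of them above, and for 30 it was under 0.5. Single pigs overlapped almost throughout. No probe had all 12 F1 pigs past all 24 parental pigs, and for 11 of the 38 probes above and 8 of the 33 below no F1 pig lay past every parental pig. The most F1 pigs past every parental pig were 8 for a probe above and 9 for a probe below. These counts were made for the selected probes alone, which the same values had chosen, and not over all probes.

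**Figure D1:**
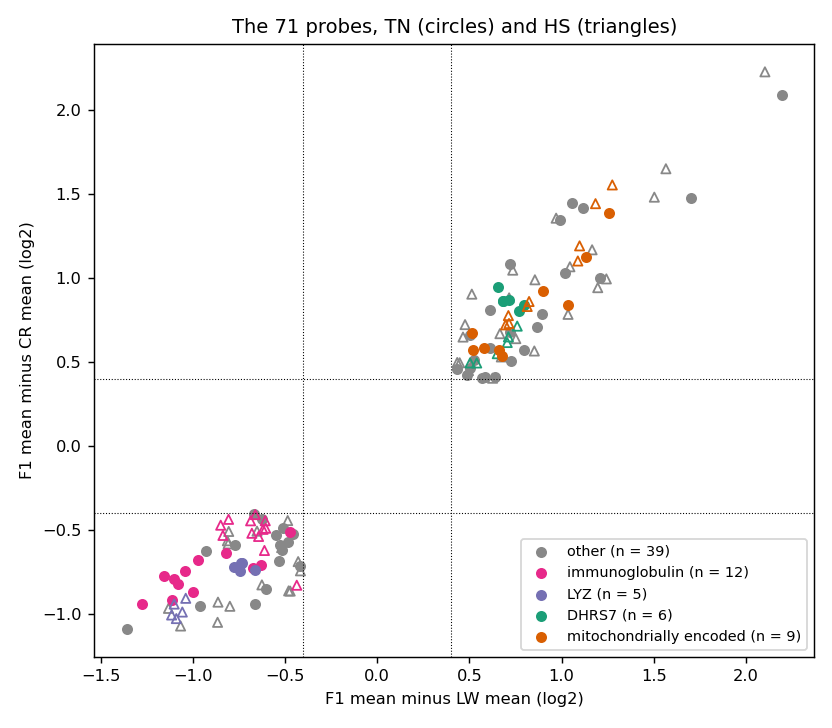
Difference of the F1 mean from the LW mean (horizontal axis, log2) against that from the CR mean (vertical axis, log2) for the 71 probes, with circles for TN pigs and triangles for HS pigs and dotted lines at the distance of 0.4 in either direction. The 38 probes above both parents lie in the upper right corner and reach 2.23, and the 33 below both lie in the lower left corner.

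Among the probes with a gene name, nearest to the threshold inside it were LPIN1, a phosphatidate phosphatase of lipid synthesis, and C4BPA, an inhibitor of complement. In the deposited table LPIN1 (A_72_P497008) had means of 8.38 in F1, 7.95 in LW and 7.92 in CR pigs at TN and of 8.50, 7.88 and 8.10 at HS, a distance of 0.40. C4BPA (A_72_P555460) had means of 10.31, 10.97 and 10.71 at TN and 9.60, 10.73 and 10.57 at HS, a distance of 0.41. Just outside were the choline transporter-like gene SLC44A4, at 12.06, 11.68 and 11.41 at TN and 12.08, 11.58 and 11.23 at HS (distance 0.38), and another probe of C4BPA, at 11.57, 12.16 and 11.96 at TN and 11.03, 11.85 and 11.80 at HS (distance 0.39). All values from here on were computed from the scanner intensities, whose log2 values differed from the deposited ones by a median of 0.0070.

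The largest group of one kind above the parents was mitochondrially encoded. It held 9 probes, named for 4 genes of the mitochondrial genome (MT on Sscrofa11.1), all above both parents, with 4 of ND2 (MT 5087 to 6128), 3 of ND1 (MT 3922 to 4876), and 1 each of COX3 (MT 9800 to 10583) and CYTB (MT 15342 to 16481). ND1 and ND2 are subunits of respiratory complex I, CYTB of complex III and COX3 of complex IV. The probe sequences are shown because probes that overlap on the same transcript gave unequal differences between the cross and its parents. Each set opens with a member, and the capitals mark the bases without an identical partner in the alignment, in the first probe against at least one of the others and in the others against the first.
ND2 A_72_P719508: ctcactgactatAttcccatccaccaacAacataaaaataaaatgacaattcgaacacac
ND2 A_72_P727968: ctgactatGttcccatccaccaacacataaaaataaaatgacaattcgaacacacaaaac
ND1 A_72_P745561: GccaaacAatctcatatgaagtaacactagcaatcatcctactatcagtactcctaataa
ND1 A_72_P739924: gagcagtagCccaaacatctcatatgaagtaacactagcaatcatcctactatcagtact
ND1 A_72_P754234: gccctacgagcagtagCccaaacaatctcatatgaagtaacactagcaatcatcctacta
CYTB A_72_P355338: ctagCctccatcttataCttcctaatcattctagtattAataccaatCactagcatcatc
CYTB A_72_P726128: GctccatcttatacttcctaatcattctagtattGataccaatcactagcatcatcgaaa
CYTB A_72_P749269: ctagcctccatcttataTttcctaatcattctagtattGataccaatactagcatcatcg

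For ND2, the probe A_72_P719508 lay 1.26 to 1.55 above the parents over the 4 differences, whereas A_72_P727968, which aligns with it over 55 bases with 2 differences, lay 0.37 to 0.51 above and was not selected. For ND1, A_72_P745561 lay 1.12 to 1.44 above. Its neighbour A_72_P739924 (51 bases aligned, 2 differences) lay 0.53 to 0.86 above, and A_72_P754234 (44 bases aligned, 1 difference), which was not selected, 0.30 to 0.65 above. For CYTB, A_72_P355338 lay 0.51 to 0.72 above, A_72_P726128 (56 bases aligned, 2 differences) 0.29 to 0.46 above, and A_72_P749269 (59 bases aligned, 3 differences) between -0.09 and 0.07. In all 3 genes the shift of the cross thus differed between probes that read nearly the same stretch of the transcript.

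Over all 13 mitochondrially encoded genes the table held 128 probes. Of these, 11 had an F1 mean at least 0.4 above both parents in all 4 differences (0.13% of all probes) and 0 at least 0.4 below (0.108% of all probes), and 2 of the 11 missed the rule because LW and CR differed by 0.4 or more at a temperature. These were COX1 A_72_P762153, 1.04 to 1.52 above the parents, and COX2 A_72_P746371, 0.88 to 2.43 above, both singled out after their values were seen. Of the 128, 60 were above 0 in all 4 differences, the 9 selected ones among them, against 10.4% of all probes. Below 0 in all 4 were 12 of the 128, against 11.6% of all probes. Many of the 128 overlap on the same transcripts and all were read in the same pigs, so they are not independent readings. The median difference from the parents was small, 0.05 for the 128 probes and -0.00 for all probes. All 25 probes named COX1 and all 11 named ND4 stayed outside the rule, and of the latter 0 were above the parents and 4 below them in all 4 differences. The member TC562664 (A_72_P297749, named after its values were seen) carries no gene name here and is not among the 128 probes, but its file description is that of bovine NADH-ubiquinone oxidoreductase chain 4. It lay 0.73 to 1.21 above the parents, and 11 parental pigs (5 LW, 6 CR) lay within its F1 range.

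**Figure D2:**
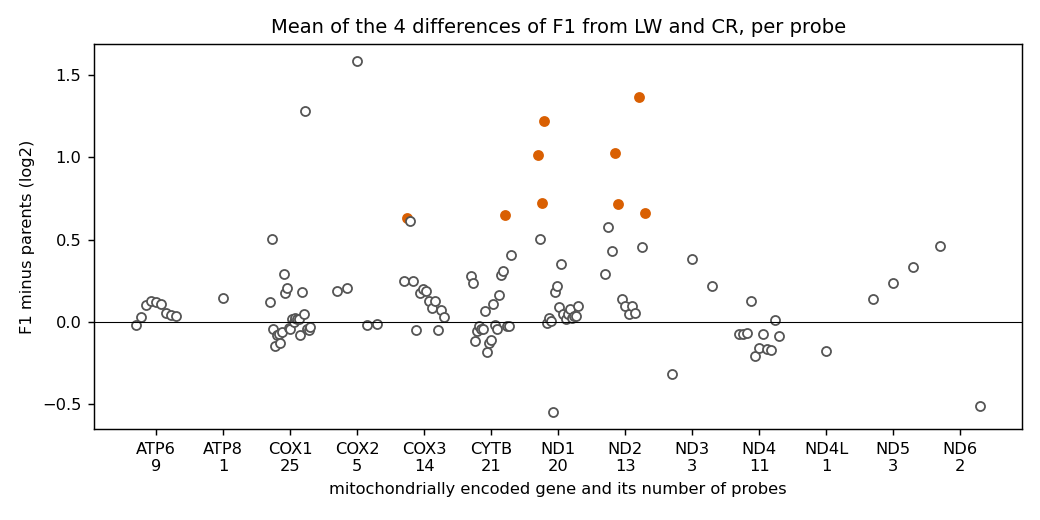
Mean of the 4 differences of the F1 mean from the parent means (vertical axis, log2) for each of the 128 probes of the 13 mitochondrially encoded genes, ordered within a gene by their start on the transcript, with the 9 selected probes filled in orange. Most probes of ND1, COX3 and CYTB lie near 0 beside the selected ones. The lowest open point of ND1 is A_72_P758032, which was below both parents in all 4 differences (-0.32 to -0.81). In ND2 several open points lie well above 0, among them A_72_P766062 (0.28 to 0.76 over the 4 differences) and A_72_P726683 (0.23 to 0.60). The highest open points are the COX1 and COX2 probes that missed the rule.

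Pig by pig, the signal of ND2 (A_72_P719508) was narrow in the cross and wide in its parents. At TN it was 16.90, 16.96 and 17.07 (lowest, median and highest) in F1, 14.54, 15.32 and 17.02 in LW and 14.30, 15.61 and 16.97 in CR pigs, and at HS 16.83, 16.96 and 17.11 in F1, 14.81, 15.30 and 16.98 in LW and 14.39, 15.17 and 17.14 in CR pigs. The SD over 6 pigs was 0.06 (TN) and 0.09 (HS) in F1, against 0.92 to 1.01 in the parental groups. All 12 F1 pigs sat at the top of the parental range, and the highest parental pigs sat among them or just above.

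The parental pigs that reached the F1 range were the same for all 9 probes named for a mitochondrial gene. In each of the 9 the same 6 parental pigs, 4 LW (2 TN, 2 HS) and 2 CR (1 TN, 1 HS), lay at or above the lowest F1 pig, and the other 18 lay below it. Of the 11 parental pigs within the F1 range of TC562664, 5 were among these 6. For ND1 (A_72_P745561) the F1 pigs lay between 16.12 and 16.34 at TN and between 16.09 and 16.53 at HS, while the LW and CR groups reached down to 14.10 and 13.91. COX3 (A_72_P750221) lay 0.52 to 0.73 above the parents, and its F1 pigs ranged from 16.86 to 17.16.

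A probe without a gene name and one of a nuclear gene had the same pigs or nearly so. TC541933 (A_72_P201832, named after its values were seen) lay 1.06, 1.45, 1.57 and 1.65 above the parents. The same 6 parental pigs, and no others, lay at or above its lowest F1 pig. PLEKHD1 (A_72_P478771, chromosome 7, 93152946 to 93187730), a pleckstrin homology domain protein, lay 0.97 to 1.42 above. Its F1 pigs ranged from 7.27 to 8.18, and the group medians of LW and CR were 5.99 to 6.19. Of the 6 parental pigs, 5 (3 LW, 2 CR) were the ones within its F1 range. Its probe is the single PLEKHD1 probe of the table.

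**Figure D3:**
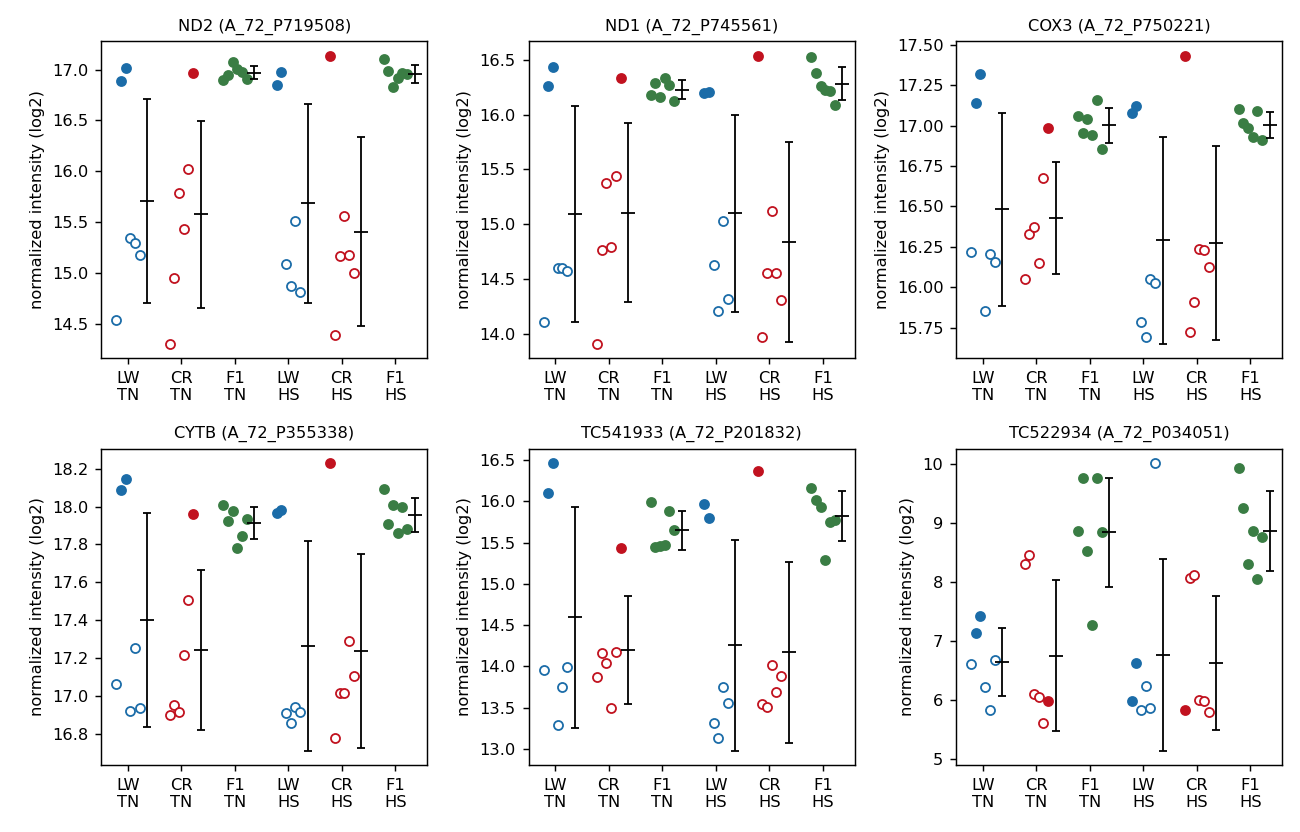
Normalized log2 intensity (vertical axis) of each pig in the 6 groups for ND2, ND1, COX3, CYTB, TC541933 and TC522934, with a bar and error bars for the mean ± SD of the 6 pigs of a group. Filled points are the F1 pigs and the 6 parental pigs that reach the F1 range in the mitochondrial probes, and in the first 5 panels these 6 sit level with the F1 pigs.

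The largest distances of all belonged to a pair of probes without a gene name, whose sequences are shown because no name identifies them, together with that of TC541933; here no bases are marked.
TC522934 A_72_P034051: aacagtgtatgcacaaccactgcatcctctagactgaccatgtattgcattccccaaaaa
TC627106 A_72_P366803: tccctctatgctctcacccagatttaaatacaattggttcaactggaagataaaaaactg
TC541933 A_72_P201832: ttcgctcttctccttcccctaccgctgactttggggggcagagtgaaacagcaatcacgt
TC522934 had lowest, median and highest values of 7.28, 8.87 and 9.77 in F1, 5.84, 6.65 and 7.42 in LW and 5.62, 6.08 and 8.46 in CR pigs at TN, and of 8.05, 8.82 and 9.94 in F1, 5.83, 6.11 and 10.02 in LW and 5.81, 5.999 and 8.12 in CR pigs at HS. The F1 pigs were high in both temperature groups, but single LW and CR pigs were as high. The 4 differences from the parents were 2.19, 2.09, 2.10 and 2.23. TC627106 lay 1.48 to 1.70 above the parents.

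CHST9 (O4894, chromosome 6, 111460257 to 111849411), a sulfotransferase acting on N-acetylgalactosamine, followed these probes. It lay 0.67 to 0.87 above the parents, at a low signal with F1 medians of 6.58 (TN) and 6.47 (HS), and was well above background on 32 of the 36 arrays. The same 5 parental pigs (1 LW at HS, 2 CR at TN and 2 CR at HS) lay at or above the lowest F1 pig for TC522934, TC627106 and CHST9, of 7 that did so for any of the 3. The pigs differed from those of the mitochondrial probes. Of the 11 parental pigs at or above the lowest F1 pig for the mitochondrial probes or TC522934, 1 was so for both.

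Probes of the MHC lay on both sides of the parents in the same F1 pigs. MIC-2, an MHC class I chain-related gene whose products are ligands of natural killer cells, was above both parents with 2 probes, together with the probes OTTSUST00000001125 and OTTSUST00000001126, of which the first has the sequence of a MIC-2 probe. SLA-6 (A_72_P237292, chromosome 7, 23645335 to 23649342), a nonclassical MHC class I gene, was below both parents, as were OTTSUST00000000780 and OTTSUST00000000781, which are identical in sequence. The OTTSUST probes carry no gene name here and were named after their values were seen.

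For MIC-2 (A_72_P172941), the lowest, median and highest values at TN were 7.16, 8.41 and 9.17 in F1, 7.36, 7.46 and 7.65 in LW and 7.51, 7.68 and 7.95 in CR pigs. At HS they were 7.67, 8.89 and 9.06 in F1, 7.32, 7.57 and 7.66 in LW and 7.48, 7.76 and 8.07 in CR pigs. The parental pigs stayed within a narrow band, and the F1 pigs reached from below that band, with 1 TN pig under every parental pig, to well above it. The differences from the parents were 0.80, 0.57, 1.20 and 0.94.

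For SLA-6 the order was turned. Its lowest, median and highest values at TN were 7.80, 8.43 and 8.90 in F1, 8.41, 9.003 and 9.25 in LW and 8.63, 8.95 and 9.23 in CR pigs, and at HS 7.28, 8.01 and 8.64 in F1, 8.59, 8.79 and 9.02 in LW and 8.89, 8.92 and 9.20 in CR pigs. The differences were -0.55, -0.53, -0.87 and -1.05. The same 8 F1 pigs (3 TN, 5 HS) lay past every parental pig in all 7 probes, above in the MIC-2 set and below in the SLA-6 set, and no further F1 pig did so in that direction in any of the 7. Of these probes, OTTSUST00000001126 was well above background on only 5 of 12 LW and 6 of 12 CR arrays, against 11 of 12 F1 arrays through which it passed the filter, so that its parental values are mostly at background and it supports nothing here. Among the 13 genes with a probe of a list of antigen presentation, SLA-6 was the single gene past 0.4, and the median difference from the parents was -0.06.

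IFRD1 (O10732, chromosome 18, 33198002 to 33248912), an interferon-related developmental regulator, overlapped with these pigs in part. It lay 0.61, 0.58, 1.17 and 1.17 above the parents. At TN its lowest, median and highest values were 6.88, 7.56 and 9.42 in F1, 6.88, 7.25 and 7.52 in LW and 6.99, 7.22 and 7.53 in CR pigs, and at HS 6.54, 8.34 and 9.55 in F1, 6.61, 6.82 and 7.25 in LW and 6.49, 6.90 and 7.18 in CR pigs. The 7 F1 pigs (3 TN, 4 HS) above every parental pig included 6 of the 8 of MIC-2, and the other F1 pigs lay among the parents. None of the 4 other IFRD1 probes was above the parents in all 4 differences, and 1 of them, A_72_P108141, was below both parents in all 4 (-0.38 to -0.55).

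DHRS7 (chromosome 1, 189153579 to 189170745), a short-chain dehydrogenase/reductase, was selected with 6 of its 7 probes, and the seventh, A_72_P499175, had the same sign in all 4 differences (0.02 to 0.28). For A_72_P665954 the lowest, median and highest values at TN were 9.55, 10.47 and 11.59 in F1, 9.46, 9.90 and 10.08 in LW and 9.40, 9.68 and 9.87 in CR pigs, and at HS 9.09, 10.54 and 11.23 in F1, 9.25, 9.62 and 9.87 in LW and 9.21, 9.71 and 9.86 in CR pigs. The differences were 0.71, 0.87, 0.76 and 0.71. In all 6 probes the same 6 F1 pigs (3 TN, 3 HS) were above every parental pig. Of the others, 1 HS pig was below every parental pig in all 6 probes and another HS pig in 1 of them (A_72_P663569), and the rest lay within the range of the parents. Of the 6 high pigs, 5 were among the 8 F1 pigs of MIC-2. As those 8 are most of the 12 F1 pigs, much of this overlap too is given by the counts alone.

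HSPE1 (O8477, chromosome 15, 101374019 to 101376146), the mitochondrial chaperonin 10, was below the parents with 1 of its 6 probes. The sequence of that probe is shown beside the one of the others that overlaps it, with capitals at the base that differs.
HSPE1 O8477: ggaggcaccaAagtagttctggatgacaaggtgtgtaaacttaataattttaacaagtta
HSPE1 A_72_P752325: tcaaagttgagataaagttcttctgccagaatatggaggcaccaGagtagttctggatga
The lowest, median and highest values of O8477 were 13.90, 15.62 and 16.56 in F1, 16.40, 16.73 and 17.28 in LW and 15.95, 16.43 and 17.06 in CR pigs at TN, and 13.98, 16.43 and 17.16 in F1, 14.89, 16.56 and 17.12 in LW and 16.19, 16.72 and 17.24 in CR pigs at HS. The differences were -1.36, -1.09, -0.43 and -0.69, and A_72_P752325, aligned over 26 bases with 1 difference, lay 0.03 to 0.15 above the parents. The 4 F1 pigs below every parental pig (3 TN, 1 HS) were all among the 6 high in DHRS7. None of the 5 other HSPE1 probes was below the parents in all 4 differences, so that the low signal was seen with O8477 alone.

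**Figure D4:**
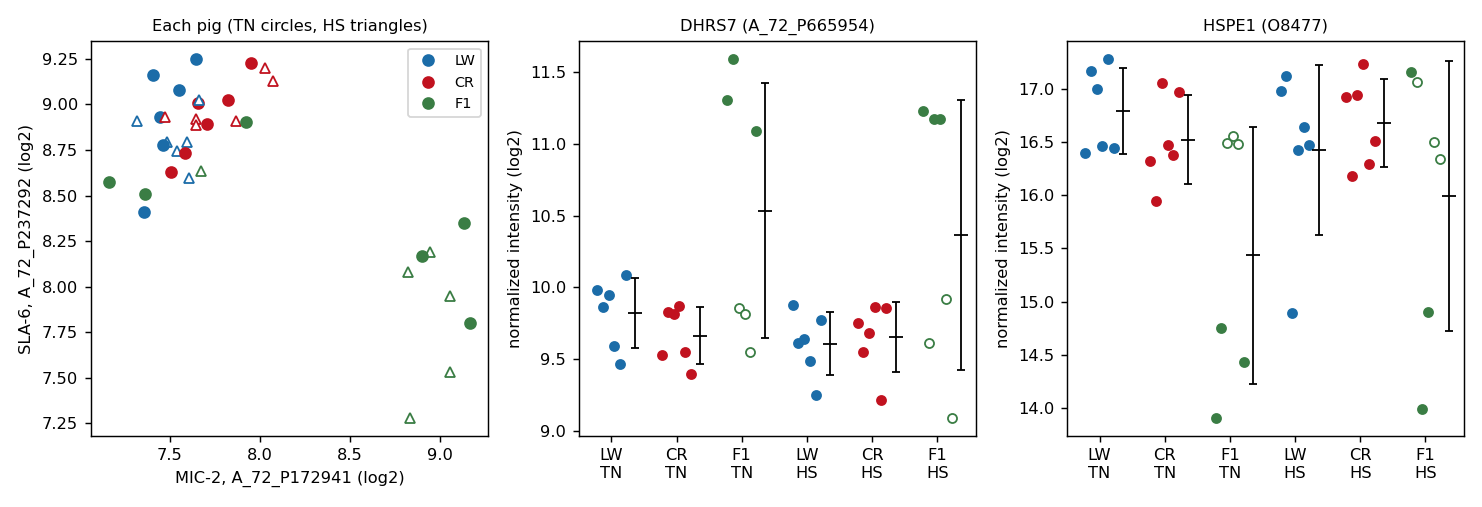
MIC-2 (horizontal axis, log2 intensity) against SLA-6 (vertical axis, log2 intensity) for each pig, and the log2 intensities of DHRS7 and HSPE1 by group, with the F1 pigs above every parental pig in DHRS7 filled and the other F1 pigs open. In the first panel 8 F1 pigs stand apart at high MIC-2 and low SLA-6, and in the last the 4 lowest F1 pigs are filled.

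Other genes above the parents were enzymes, hormones and regulators. AKR1E2 (A_72_P078096, chromosome 10, 65680314 to 65704701), an aldo-keto reductase, lay 0.51 to 1.34 above, and its lowest, median and highest values at TN were 9.25, 10.66 and 10.87 in F1, 8.99, 9.21 and 10.65 in LW and 8.44, 9.21 and 9.64 in CR pigs, so that 4 F1 pigs (3 TN, 1 HS) were above every parental pig. LOC100125547, described in the files as preprocalcitonin, the precursor of the hormone calcitonin, lay 0.89, 0.78, 0.67 and 0.53 above with wide groups, from 9.06 to 12.62 in F1 pigs and from 8.66 to 11.67 in LW pigs. In both genes the F1 and parental groups overlapped.

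MX2 (A_72_P027231, chromosome 13, 204798633 to 204821612), an interferon-induced GTPase, lay 0.45 to 0.50 above the parents, and its 2 other probes had the same sign in all 4 differences. Of the 12 genes of a list of interferon-stimulated genes, each read by its brightest probe (for MX2 one that the rule did not select), 5 were above both parents in all 4 differences and 0 were past 0.4, with a median difference of 0.19 against -0.00 for all probes. LPIN1 (chromosome 3, 124940557 to 125074137) had 6 other probes, of which 1 had the same sign in all 4 differences. ANKRD2, an ankyrin repeat protein of striated muscle, lay 0.48, 0.42, 0.47 and 0.65 above the parents.

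Below both parents, LYZ had the largest distance and was selected with all 5 of its probes in the table. LYZ (chromosome 5, 33612593 to 33618953) encodes lysozyme, a bacteriolytic enzyme of macrophages and granulocytes. For A_72_P721793 the lowest, median and highest values at HS were 9.29, 9.60 and 10.15 in F1, 10.19, 10.77 and 11.32 in LW and 10.21, 10.47 and 11.46 in CR pigs, and the 6 F1 pigs lay below all 12 parental pigs. At TN the groups overlapped, with 8.72, 9.58 and 11.03 in F1, 9.54, 10.68 and 11.02 in LW and 8.44, 10.53 and 11.79 in CR pigs. The differences were -0.75, -0.74, -1.09 and -1.03. Over the 5 probes the distance ran from -0.66 to -0.74. Not every probe separated the groups at HS. In A_72_P737919 an F1 pig at 10.30 lay above an LW pig at 10.25 and a CR pig at 10.24. In O11856 an F1 pig at 8.45 lay above a CR pig at 8.39. Of the probes 2 are identical in sequence, A_72_P737919 being 1 of them, and both share 45 bases with A_72_P721793.

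Macrophage markers were lower in the cross in part. All 6 genes of the macrophage list had a probe, 0 were past 0.4 and 3 were below both parents in all 4 differences, with a median difference of -0.38 against -0.00 for all probes. CD163 lay at -0.40, C1QA at -0.40, C1QB at -0.39, C1QC at -0.37, CSF1R at -0.22 and CD68 at -0.04. The highest of the 4 differences was above 0 for C1QA (0.07), C1QC (0.08) and CD68 (0.03). The summed signal of the list had a lowest, median and highest value of 13.80, 14.47 and 15.03 in F1, 14.33, 14.94 and 15.55 in LW and 14.18, 14.46 and 15.19 in CR pigs. The part of macrophage content in the LYZ signal was not tested. Other cell type lists shifted too, with medians of -0.27 for T and NK cells (5 genes with a probe), -0.22 for smooth muscle (4), -0.15 for fibroblasts (6), 0.17 for adipocytes (6) and 0.32 for the single kidney gene with a probe, and none of their genes was past 0.4. The granulocyte list had a median difference of -0.08.

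NPG4 (chromosome 13, 30932411 to 30934626), protegrin 4, an antimicrobial peptide of neutrophils, was below the parents with 2 of its 3 probes, which share 42 bases, and the third had the same sign. For A_72_P688749 the differences were -0.93, -0.63, -0.47 and -0.87. Groups of both parents were wide, from 6.65 to 10.79 in LW and from 6.85 to 10.44 in CR pigs, and the F1 pigs ranged from 6.61 to 9.06.

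Immunoglobulins made up the largest group below the parents. Of the 33 probes, 12 were of immunoglobulin chains, 8 by their description and 4 by a run of at least 20 bases shared with one of these, and 8 of the 12 share such a run with another, so they are not independent. They include LOC396781 (2 probes), IGLL1, LOC100049651, LOC100037923 and LOC100290375, and the last pair have 1 identical sequence. Their distances ran from -0.41 to -0.61. Wide parental groups went with these shifts. At or below the highest F1 pig lay 8 to 12 LW pigs and 7 to 10 CR pigs, and at most 3 F1 pigs lay below every parental pig.

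For LOC396781 (A_72_P711793) the lowest, median and highest values at TN were 6.46, 7.37 and 8.97 in F1, 8.19, 8.64 and 10.08 in LW and 6.22, 8.39 and 10.86 in CR pigs, and at HS 6.86, 8.47 and 9.79 in F1, 7.59, 9.0002 and 11.12 in LW and 6.71, 9.49 and 10.47 in CR pigs. The differences were -1.28, -0.94, -0.61 and -0.62, and the groups overlapped at both temperatures. Of its 12 other probes, all 12 had the same sign in all 4 differences and 4 were past 0.4. These 4 missed the rule because LW and CR differed by 0.4 or more at a temperature. All of the 12 except A_72_P127936 lay farther from LW than from CR pigs at both temperatures. A_72_P152696, for one, lay -1.74 from LW and -0.88 from CR pigs at TN. Of the B and plasma cell list, 5 genes had a probe, 3 of them below both parents in all 4 differences and 0 past 0.4, with a median difference of -0.10. Its summed signal had a lowest, median and highest value of 9.72, 9.94 and 10.30 in F1, 9.62, 9.87 and 10.30 in LW and 9.82, 10.27 and 10.53 in CR pigs. The part of such cells in the immunoglobulin signal was not tested.

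C4BPA (chromosome 9, 67726159 to 67774369), the alpha chain of the C4b-binding protein, lay -0.67, -0.41, -1.13 and -0.97 from the parents, and all 6 of its other probes were below both parents in all 4 differences, between -0.19 and -0.81. At HS its lowest, median and highest values were 8.60, 9.67 and 10.35 in F1, 9.19, 10.73 and 11.99 in LW and 10.31, 10.55 and 10.77 in CR pigs, so that the cross was low but overlapped with both parents. PDCD11 (O10547, chromosome 14, 114327583 to 114382002), a ribosomal RNA processing factor, lay -0.62, -0.43, -0.81 and -0.51 from the parents. LOC100157027 lay -0.51, -0.49, -0.81 and -0.58 from them, and the same 6 F1 pigs (2 TN, 4 HS) were below every parental pig in both. LOC100520542 lay -0.48 to -0.61 from the parents at a low signal, from 5.81 to 6.50 in F1 pigs.

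Among the probes below the parents without a gene name, TC622518 (A_72_P417164) had the most F1 pigs past the parents, 9 of 12. At TN its lowest, median and highest values were 6.21, 6.70 and 7.22 in F1, 7.42, 7.58 and 7.98 in LW and 7.24, 7.60 and 8.10 in CR pigs, and the 6 F1 pigs lay below all 12 parental pigs. At HS they overlapped, with 6.30, 6.81 and 7.54 in F1, 7.42, 7.60 and 8.28 in LW and 7.0003, 7.44 and 7.90 in CR pigs. EW044357 (A_72_P325413) was not well above background on any of the 12 F1 arrays. In the parents it was well above background on 3 of 6 LW and 5 of 6 CR arrays at TN and on 4 of 6 and 5 of 6 at HS. It passed the filter only through the parental arrays at HS. Its F1 values and part of its parental values are at background, so no size is given for its difference and it supports nothing here.

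**Figure D5:**
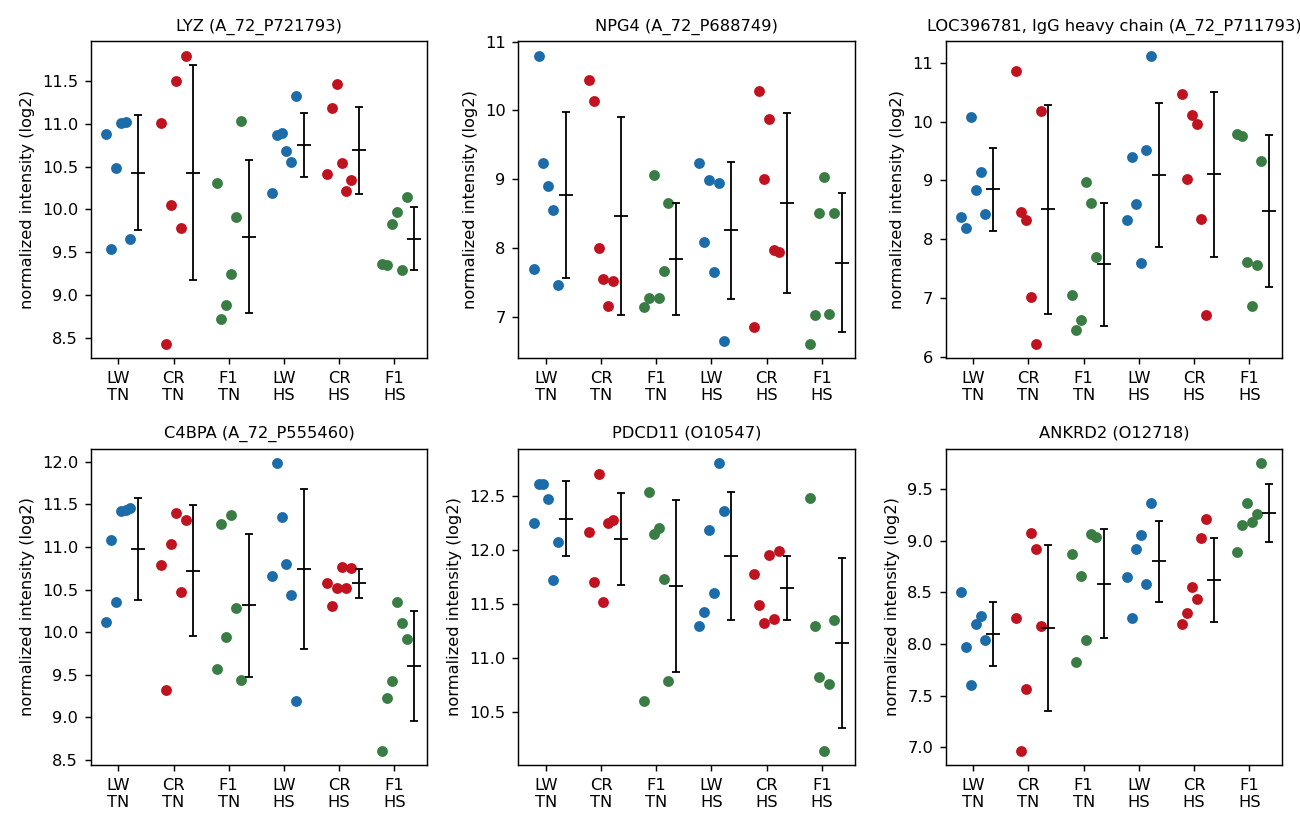
Normalized log2 intensity (vertical axis) of each pig by group for LYZ, NPG4, LOC396781, C4BPA, PDCD11 and ANKRD2, with a bar and error bars for the mean ± SD of the 6 pigs of a group. In the LYZ panel the 6 F1 pigs at HS lie at or below 10.15, under all LW and CR pigs at HS, and in the ANKRD2 panel the HS groups lie above the TN groups of the same breed by 0.46 to 0.71.

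The difference between HS and TN pigs, averaged over the breeds, was not used by the rule and was tested with limma over all 45943 probes that passed the filter, with breed as a covariate and Benjamini-Hochberg adjustment. Over all probes 0.886% were called at an FDR of 0.05 (407 probes, 179 higher and 228 lower in HS pigs). Of the 71 probes outside the parents, 1 was called, or 1.41%, which is close to that background with a count of 1. At an unadjusted p under 0.05 there were 7. The HS minus TN differences of the 71 ran from -0.44 to 0.65 with a median of -0.03.

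The called probe was that of ANKRD2 (O12718). Its lowest, median and highest values were 6.97, 8.22 and 9.07 in the 18 TN pigs and 8.20, 8.97 and 9.75 in the 18 HS pigs, with means of 8.28 ± 0.59 and 8.90 ± 0.44 (SD, n = 18). The HS pigs were higher on average and the groups overlapped. The difference was 0.62 on the log2 scale (SE 0.15, limma adjusted p = 0.0399), and it was 0.71 within LW, 0.46 within CR and 0.69 within F1 pigs. A second ANKRD2 probe, A_72_P404558, which was not selected by the rule, was 0.69 higher in HS pigs (SE 0.17, adjusted p = 0.0373 from limma). Within the 5 slides the difference of O12718 was 0.31, 0.95, 0.56, 0.36 and 0.76, with 2 pigs against 2 on the first slide and 4 against 4 on the others, and with the slide as a block it was 0.62 (SE 0.14, adjusted p = 0.0206 from limma). The call was lost when any of the 5 slides was left out (adjusted p from limma 0.0533, 0.18, 0.111, 0.136 and 0.128) and in 16 of 36 fits with 1 pig left out (range 0.0162 to 0.0664).

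Because ANKRD2 is a muscle gene, the skeletal muscle list was set beside it. Its summed signal had a lowest, median and highest value of 14.32, 14.53 and 14.92 in TN and 14.42, 14.60 and 15.07 in HS pigs, and 0 of its 5 genes with a probe were called. The part of muscle tissue in the ANKRD2 signal was not tested.

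Other members did not pass the test between HS and TN pigs. ND2 differed by -0.07 (SE 0.24, adjusted p = 0.943 from limma), LYZ by 0.19 (SE 0.23, adjusted p = 0.799), DHRS7 by -0.13 (SE 0.17, adjusted p = 0.813), MIC-2 by 0.20 (SE 0.14, adjusted p = 0.589) and SLA-6 by -0.16 (SE 0.10, adjusted p = 0.519). The estimates of the mitochondrial probes lay near 0, and of the 127 mitochondrially encoded probes tested 0 were called by limma. PDCD11 had the lowest estimate of all 71 probes at -0.44 (SE 0.18, adjusted p = 0.243 from limma). The 12 immunoglobulin probes had estimates between 0.17 and 0.65, all above 0, with a lowest adjusted p of 0.351 from limma, and most of them share sequence.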

How the data were processed

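Total RNA of 36 adrenal glands was labelled with Cy3 and hybridised by the authors, and spot intensities were extracted with Agilent Feature Extraction 10.10.1.1 (submitters' processing notes). Spot intensities as deposited are raw scanner values without between-array normalization. The rule was applied to the table of log2 values that the authors made from them by quality control and quantile normalization (45348 probes, 0 columns of other samples).

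Here, the median pixel intensity of the scanner files was quantile normalized without control spots and outlier spots, replicate spots were averaged, and values were log2 transformed. These values differed from the deposited ones by a median of 0.0070 and at most 0.2369 (99th percentile 0.0238). Tested were probes well above background on 9 or more of 18 arrays in TN or in HS. HS minus TN was tested with limma 3.58.1 in R 4.3.3 (lmFit, eBayes, Benjamini-Hochberg, threshold 0.05), with breed as a covariate, and checked on simulated data. Pen, slaughter day and parents, random effects in the authors' model, were not used here. No probe's level was set against another's. The direct comparison of breeds was left untested because the rule uses it.

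Probes were named by their deposited gene name (15580 probes), accession (9154) or an older symbol (195), through RefSeq tables of Sscrofa11.1, whose coordinates are given. Named were the genes with at least 2 selected probes, the 12 genes farthest above and the 12 farthest below the parents, those past the threshold between HS and TN, the 2 on each side nearest to the rule's threshold, and at most 2 unnamed probes in each direction, which covers 27 of the 28 genes. Names outside this rule are marked in the text. Marker and process lists use the brightest probe of each gene. The members and lists were chosen with earlier results of these data known. Adrenal cortex and chromaffin genes had median differences from the parents of -0.01 and 0.03, and those of the lists not described in the text lay between -0.11 (pancreas) and 0.04 (Schwann cells).

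Alternatives were the deposited values, normexp with an offset of 50, the processed signal minus each array's 75th percentile, array-median centring, distances of 0.3 and 0.5, group medians, the slide as a block, other filters on dim probes, a breed by temperature term, and each slide or pig left out.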

Additional observations from a re-analysis of the deposited data

Results flagged for a closer look

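In the groups of 6 pigs, the highest or lowest pig was tested for standing apart from the others in each group of the named genes. Of 162 groups 13 had such a pig. The threshold of the test is set for about 1 in 20 in independent groups. These groups share pigs between probes and hold the values that the rule used, so the count is only a description. Above the rest of their group were PLEKHD1 in 1 CR pig at TN (7.81, next 6.21) and in 1 at HS (7.49, next 6.09), CHST9 in 1 LW pig at TN (6.28, next 5.87), in 1 LW pig at HS (7.13, next 5.92) and in 1 F1 pig at HS (7.38, next 6.68), AKR1E2 in 1 LW pig at TN (10.65, next 9.49) and in 1 at HS (9.81, next 9.37), and COX3 (17.43, next 16.23) and CYTB (18.23, next 17.29) in the same CR pig at HS. The CR pigs of PLEKHD1, COX3 and CYTB are among the 6 parental pigs that reached the F1 range of the mitochondrial probes.

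Below the rest of their group were MIC-2 in 1 F1 pig at HS (7.67, next 8.83), AKR1E2 in 1 F1 pig at TN (9.25, next 10.37), HSPE1 in 1 LW pig at HS (14.89, next 16.43) and LOC100520542 in 1 CR pig at TN (5.93, next 6.74). Values are log2 intensities.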

How the results depend on the processing

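No paired analysis was possible because the labels give no replicate numbers that pair pigs between groups. The rule gave 71 probes with the deposited values, with the scanner intensities and with array medians subtracted, and 67, 95, 49, 78 and 73 with normexp, the 75th percentile, a distance of 0.5, group medians and the slide removed, of which 57, 56, 42, 44 and 55 were among the 71. With a distance of 0.3 it gave 107 (57 shared). The distance also sets the gap allowed between LW and CR, which 0.3 narrows and 0.5 widens. Without slides 1 to 5 it gave 69, 52, 51, 76 and 48, and with 1 pig left out 55 to 98. Only 20 of the 71 stayed with every pig left out in turn, and 51 were lost at least once. The distances of the named genes were compared with the deposited values, normexp, the 75th percentile and the slide as a block. None changed sign in 108 comparisons, and 10 fell under 0.4. These genes were chosen for a distance of at least 0.4, and no pig or slide was left out in these comparisons. The largest move was CHST9, 1.23 with the 75th percentile. The cause was not tested.

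Of members called between HS and TN, the count was 0 with the 75th percentile and without each of slides 1, 2, 3, 4 and 5, and 0 to 1 with 1 pig left out. Over all probes it was 890 with the slide as a block, 169, 33, 34 and 54 without slides 1, 2, 3 and 4, which also leaves fewer arrays, and 221 to 812 with 1 pig left out. Of 1215 HS minus TN values, 46 changed sign over 9 genes, none of size over 0.16 in the reported fit. These were ND2 (0.011 without slide 4, 0.094 without slide 5, -0.17 to 0.022 with 1 pig left out), ND1 (0.11 without slide 5, -0.17 to 0.015), CHST9 (0.0014 with deposited values, 0.023 with the 75th percentile, 0.072 without slide 2, 0.019 without slide 3, -0.078 to 0.042), CYTB (0.044 without slide 4, 0.0086 without slide 5, -0.096 to 0.017), MX2 (0.061 without slide 2, 0.20 without slide 5, -0.105 to 0.043), NPG4 (0.17 without slide 1, -0.24 to 0.012), IFRD1 (0.016 without slide 2), LOC100125547 (-0.040 without slide 2) and LPIN1 (-0.032 without slide 3).

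Depth limits 8 of the 71 probes, which were not well above background on all 36 arrays.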
